A study of Rattus norvegicus with 23 samples.

Results

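The immediate early genes described here were Fos, Fosb, Jun, Junb, Egr1, Egr2, Ier2, Atf3, Nr4a1 and Dusp1, that is 10 of the 23235 genes tested in lungs of elderly rats after inhalation of titanium dioxide (TiO2). Their values were taken from the non-control spots that carry these symbols, and no threshold on a measured value entered the rule, although the list was drawn up with earlier results of these data known. All 10 passed the filter on dim probes, with 14 probes on 44 spots of the array, and each of the 14 probes was well above background on 23 of 23 arrays. RNA from the accessory lobe was hybridised to single-colour Agilent rat arrays, with 1 rat per array. All rats were male F344 rats, 19 months old, that inhaled nose-only during 4 weeks, on 5 days of each week and for 6 h on each of them. Controls breathed filtered air and exposed rats the nanostructured TiO2 aerosol at 10 mg/m3. There were 6 control and 5 exposed rats at the end of exposure (D0), and 6 control and 6 exposed rats 28 days later (D28). Since RNA came from bulk tissue, fewer cells of a type and less RNA per cell cannot be told apart. The arrays lay on 5 slides that held 1 to 7 arrays each, and slides 1, 3 and 5 held all 4 groups. On each array 69.5 to 77.9% of spots were well above background, and precision is limited by how many arrays there were. All signals are log2 processed signals after quantile normalization, except a sum of linear signals over the macrophage markers. They are compared between rats for the same gene, or the same set of genes, and never between genes.

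Immediate early genes are transcribed within minutes of a stimulus, without the need for new protein synthesis, because the factors that switch them on are already present in the resting cell. Growth factors, stress, mechanical stretch and the handling of tissue can all trigger them, and their RNAs are short-lived. Fos, Fosb, Jun and Junb encode subunits of the transcription factor AP-1, and Atf3 encodes a stress-induced bZIP factor that can pair with Jun proteins. Egr1 and Egr2 encode zinc finger factors, Nr4a1 an orphan nuclear receptor, and Ier2 a small nuclear protein. Dusp1 encodes a phosphatase that switches MAP kinases off again. In the lung these genes are known to respond to ventilation, injury and inhaled irritants. Serum response factor, which binds the CArG box, and CREB, which binds the cyclic AMP response element (CRE), are known activators of such genes.

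The promoter sequences are shown as a description of the genes, and a link between them and the signals of the rats was not tested. RefSeq promoters of the GRCr8 assembly were given for 7 of the 10 genes, namely Fosb, Junb, Egr1, Egr2, Ier2, Nr4a1 and Dusp1. In each, the 250 bases before the annotated start were searched on both strands for the CArG box, the CRE (TGACGTCA), the AP-1 site (TGANTCA) and the EGR site (GCGNGGGCG), and no match overlapped another. Each sequence below runs 5′ to 3′ on the strand of the gene, with matches in capitals. The promoters of Egr1 and Egr2 held CArG boxes, at 105 to 96 and 83 to 74 bases before the start in Egr1 and at 83 to 74 in Egr2.
Egr1, chr18:26736828-26737077, plus strand: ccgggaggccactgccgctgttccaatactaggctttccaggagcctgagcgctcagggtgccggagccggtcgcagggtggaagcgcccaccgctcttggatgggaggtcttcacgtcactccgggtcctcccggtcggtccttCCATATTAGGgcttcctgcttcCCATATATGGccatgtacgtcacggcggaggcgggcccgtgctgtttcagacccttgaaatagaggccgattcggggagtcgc
Egr2, chr20:21054442-21054691, minus strand: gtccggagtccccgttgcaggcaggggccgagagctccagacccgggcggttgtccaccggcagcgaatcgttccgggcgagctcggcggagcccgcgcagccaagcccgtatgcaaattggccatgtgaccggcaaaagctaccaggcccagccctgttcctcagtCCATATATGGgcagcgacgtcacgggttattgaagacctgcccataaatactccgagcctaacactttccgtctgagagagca
The promoters of Ier2 and Dusp1 each held 1 CRE, at 66 to 59 and at 124 to 117 bases before the start.
Ier2, chr19:40399123-40399372, plus strand: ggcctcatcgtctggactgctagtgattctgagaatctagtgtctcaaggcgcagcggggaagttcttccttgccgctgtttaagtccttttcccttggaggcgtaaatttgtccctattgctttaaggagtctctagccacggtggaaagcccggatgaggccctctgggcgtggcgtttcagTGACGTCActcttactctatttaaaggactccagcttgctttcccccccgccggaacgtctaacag
Dusp1, chr10:17184603-17184852, plus strand: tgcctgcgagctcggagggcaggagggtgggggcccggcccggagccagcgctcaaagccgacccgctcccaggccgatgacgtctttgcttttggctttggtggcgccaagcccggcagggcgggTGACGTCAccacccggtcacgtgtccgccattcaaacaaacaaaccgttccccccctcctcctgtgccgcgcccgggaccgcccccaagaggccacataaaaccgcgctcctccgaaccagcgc
A CArG box was present in 2 of the 7 promoters and in 1.5% of the 33469 promoters of the table, and the CRE in 2 of 7 and in 1.59%. An EGR site was present in 1 of 7, that of Nr4a1, and in 4.29% of all, and an AP-1 site in 0 of 7 and in 6.34% of all. These matches are descriptions of letters in a window, and no binding was measured.

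The comparison of exposed with control rats asked whether the TiO2 aerosol left a trace in these genes at the end of exposure and 28 days later. None of the 10 genes was a differentially expressed gene (DEG), defined by a limma adjusted p below 0.05 and a fold change (FC) of at least 1.5, at either time-point. Of all genes tested, 408 (1.76%) were DEGs on D0 and 174 (0.749%) on D28. At an unadjusted p below 0.05, 2 of the 10 genes were found on D0, Egr2 and Dusp1, against 11.8% of all genes, and 1 on D28, Egr2, against 10.9%. On D0 the log2 FC was above 0 for 3 of the 10 genes, against 49.8% of all genes, with a median of -0.26 over the 10 and of -0.0012 over all genes. On D28 it was above 0 for 6 of 10, against 48.9%, with a median of 0.07 and of -0.0051. Exposed and control rats overlapped in signal for all 10 genes on both days, whereas 4.27% of all genes on D0 and 1.21% on D28 had groups without overlap.

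Dusp1, measured by a probe on chromosome 10 of rn4 between 16944342 and 16944661, had the log2 FC farthest from 0 on D0. Its signal in the 5 exposed rats was 8.92, 8.28, 8.04, 8.24 and 8.31, and in controls it ran from 8.29 over a median of 9.20 to 10.13. All exposed rats thus lay below the control median, and control rats 6 (8.29) and 2 (8.82) lay within the exposed range. The log2 FC was -0.89 ± 0.41 (SE; 95% interval -1.75 to -0.03; limma adjusted p = 0.396). Within the 4 slides that held both groups, the difference ran from -1.57 to 0.10 and was below 0 on 3, and with the slide as a block it was -0.78 (adjusted p = 0.236). On D28 exposed rats ran from 7.35 over 8.84 to 9.77 and controls from 7.34 over 8.44 to 9.67. These ranges were nearly the same, with a log2 FC of 0.10 ± 0.39 (SE, limma adjusted p = 0.971).

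**Figure D1:**
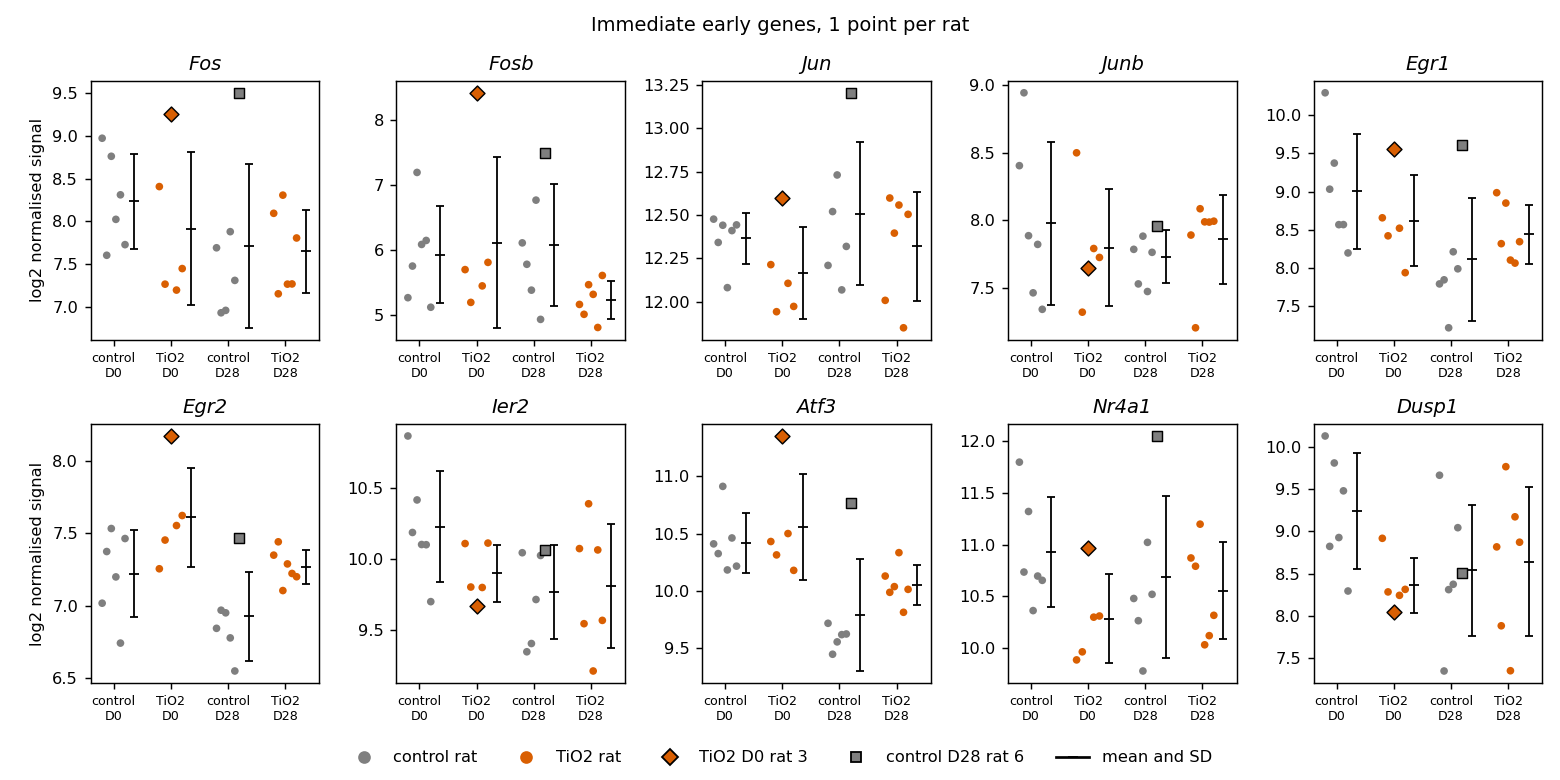
Log2 normalised signal of the 10 immediate early genes on the vertical axes, with 1 point per rat in the 4 groups on the horizontal axes and the mean and SD beside each group. Exposed and control rats overlapped for every gene, and exposed rat 3 of D0 (diamond) and control rat 6 of D28 (square) were the highest of their groups for 7 and 9 of the 10 genes.

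Egr2, a zinc finger factor known from myelin formation and from lymphocytes and macrophages, was the only one of the 10 with an unadjusted p below 0.05 at both time-points. The exposed rats of D0 had 7.26, 7.45, 8.18, 7.55 and 7.62, and controls ran from 6.74 over a median of 7.29 to 7.53. On D28 exposed rats ran from 7.10 over 7.26 to 7.44 and controls from 6.55 over 6.90 to 7.47. In D28 controls 5 of 6 rats lay below every exposed rat, and control rat 6 lay above all of them. The log2 FC was 0.39 ± 0.17 on D0 (SE, limma adjusted p = 0.313) and 0.34 ± 0.16 on D28 (SE, limma adjusted p = 0.428), a FC of 1.31 and of 1.27. Without exposed rat 3 the D0 value was 0.25 (adjusted p = 0.674). Its 2 probes gave log2 FC of 0.51 and 0.28 on D0 and of 0.45 and 0.23 on D28. Within slides the difference ran from -0.12 to 0.71 on D0, above 0 on 3 of 4 slides, and from -0.03 to 0.47 on D28, above 0 on 2 of 3. With the slide as a block the adjusted p was 0.102 on D0 and 0.213 on D28. Egr1, the related factor induced by stretch and growth factors, had log2 FC of -0.38 on D0 and 0.33 on D28 (standard errors 0.38 and 0.36). In the controls of D0 the Egr1 signal ran from 8.20 over 8.80 to 10.29, and the exposed rats had 8.66, 8.42, 9.56, 8.52 and 7.94.

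Among the AP-1 genes, the Fos signal in exposed rats of D0 was 8.41, 7.27, 9.26, 7.20 and 7.45, and in controls it ran from 7.60 over a median of 8.17 to 8.97. The exposed group held both the highest and the lowest Fos signal of D0. The Fos log2 FC was -0.32 on D0 (standard error 0.43) and -0.06 on D28 (standard error 0.41). Fosb, close in sequence to Fos, had 5.70, 5.20, 8.41, 5.45 and 5.81 in the exposed rats of D0, of which 4 were at or below 5.81 and rat 3 stood apart. Its log2 FC on D0 was 0.19 (standard error 0.50), and -0.39 without that rat. On D28 Fosb ran from 4.81 over 5.24 to 5.61 in exposed rats and from 4.94 over 5.95 to 7.49 in controls, with a log2 FC of -0.85 ± 0.48 (SE, limma adjusted p = 0.57). Jun and Junb had log2 FC of -0.20 and -0.18 on D0 and of -0.19 and 0.13 on D28. Atf3, the stress-induced partner of Jun proteins, had 10.43, 10.31, 11.35, 10.50 and 10.18 in the exposed rats of D0 and from 10.18 over 10.37 to 10.91 in controls, which gave a log2 FC of 0.14 ± 0.21 (SE). On D28 its log2 FC was 0.26 ± 0.20 (SE, limma adjusted p = 0.72).

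Nr4a1, the nuclear receptor, had 9.88, 9.96, 10.97, 10.30 and 10.31 in the exposed rats of D0, and controls ran from 10.36 over 10.71 to 11.80. Of the exposed rats 4 of 5 lay below every control, and rat 3 lay among the controls. The log2 FC was -0.64 ± 0.33 (SE, limma adjusted p = 0.496), and -0.13 on D28 (standard error 0.32). Without exposed rat 3 of D0 and control rat 6 of D28, a choice made after their values were seen, the Nr4a1 value on D0 was -0.82 (adjusted p = 0.164). Ier2 had log2 FC of -0.33 on D0 and 0.04 on D28 (standard errors 0.21 and 0.20). The spread between rats set what could be seen: with these standard errors a FC of 1.53 (Egr2) to 3.60 (Fosb) on D0, and of 1.56 to 3.78 for the same genes on D28, would have been needed to reach the p at which genes were called. A p above the threshold does not show that exposed and control rats were alike.

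**Figure D2:**
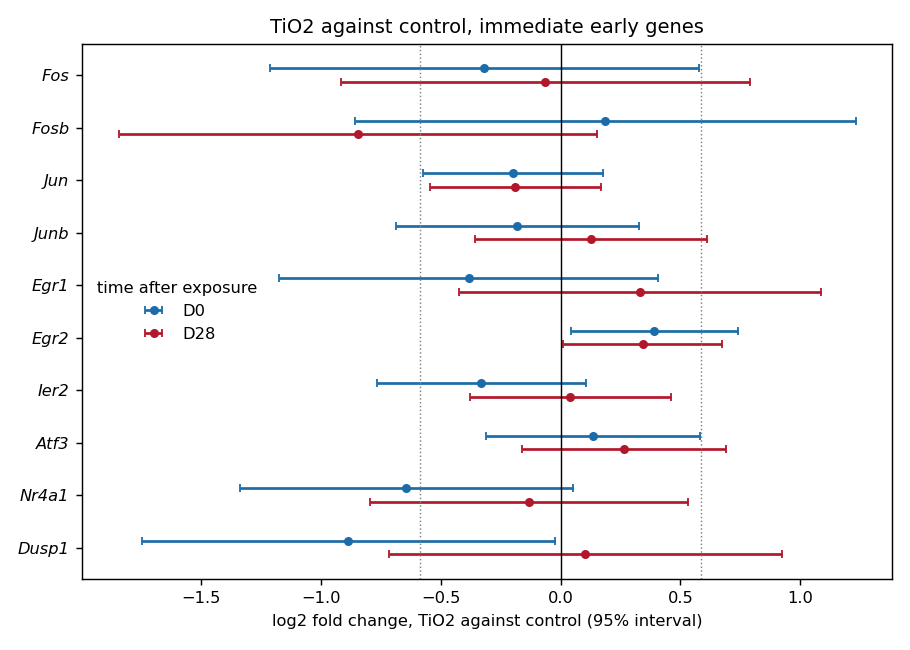
Log2 FC of exposed against control rats for each gene (horizontal axis, points) with its 95% interval from limma, on D0 (blue) and D28 (red); dotted lines mark a FC of 1.5. The intervals include 0 for all genes except Dusp1 and Egr2 on D0 and Egr2 on D28, and no adjusted p passed 0.05.

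The effect of TiO2 was compared between the time-points, and it did not differ past the threshold for any of the 10 genes, while 7 of all genes tested (0.0301%) were called. The D28 effect minus the D0 effect was farthest from 0 for Fosb, at -1.03 (95% interval -2.48 to 0.41), and for Dusp1, at 0.99 (95% interval -0.20 to 2.18), each with an adjusted p of 1. The log2 difference was above 0 for 8 of the 10 genes, against 49.6% of all genes. Unadjusted p below 0.05 were found for 0 of the 10 and for 3.44% of all genes.

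The control rats of D28 and those of D0 differ by 28 days of age and housing, and also in the time since nose-only inhalation of filtered air ended. These cannot be told apart. The 2 control groups also differed in clock genes: of 15, 3 were called higher and 7 lower on D28. Dbp, for one, had a mean of 13.87 on D0 and of 9.74 on D28. The part of this difference in the values below was not tested. Between the 2 control groups, 0 of the 10 genes and 140 of all genes (0.603%) were called. Of all genes, 1.6% had control groups without overlap, and 0 of the 10 did. These controls are the same arrays as in the comparisons with exposed rats. The log2 FC was above 0 for 2 of the 10 genes, against 48.9% of all genes, and unadjusted p below 0.05 were found for Atf3, Egr1 and Ier2, against 13.2% of all genes. Atf3 ran from 10.18 over a median of 10.37 to 10.91 in controls of D0, whereas the controls of D28 ran from 9.45 over 9.62 to 10.76. Of the D28 controls, 5 of 6 lay at or below 9.72, under every D0 control, and rat 6 lay among the D0 controls. The Atf3 log2 FC was -0.63 ± 0.20 (SE, limma adjusted p = 0.18). This call was decided by 1 rat, since without control rat 6 of D28 the log2 FC was -0.82 with an adjusted p of 0.0183, past both thresholds. Within slides 1 and 3 the Atf3 difference was -0.82 and -0.76, and within slide 5, which held rat 6 and 1 control of D0, it was 0.55. Egr1 ran from 7.22 over 7.92 to 9.61 in controls of D28, again with rat 6 highest, and had a log2 FC of -0.89 ± 0.36 (SE, limma adjusted p = 0.292), and of -1.19 without that rat (adjusted p = 0.0987). The Ier2 value was -0.46 (adjusted p = 0.325). In exposed rats, D28 against D0, 0 of the 10 genes and 81 of all genes (0.349%) were called, the log2 FC was above 0 for 4 of the 10 genes, against 47.4%, and 1 of the 10 had an unadjusted p below 0.05, against 7.67% of all genes. That gene was Atf3, with a log2 FC of -0.50 ± 0.21 (SE, limma adjusted p = 0.605).

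Rats of the same group differed more in these genes than in most genes of like signal. The SD between rats, pooled over the 4 groups, was 0.87 for Fosb, 0.74 for Fos, 0.72 for Dusp1, 0.66 for Egr1 and 0.58 for Nr4a1 on the log2 scale. It was 0.42 for Junb, 0.36 for Atf3 and for Ier2, 0.30 for Jun and 0.28 for Egr2. The median was 0.50 over the 10 genes and 0.32 over all genes, and 8 of the 10 were above the latter. Since the SD can depend on the signal, genes of like mean signal were also compared in bins, where 9 of the 10 were between the percentiles 91.65 and 99.05 and Egr2 was at 47.46. Over all rats the Fosb signal spanned a 12.1-fold range, Egr1 8.38-fold, Dusp1 6.91-fold and Fos 5.94-fold, whereas Jun spanned 2.56-fold. This is given as a description, without a test.

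**Figure D3:**
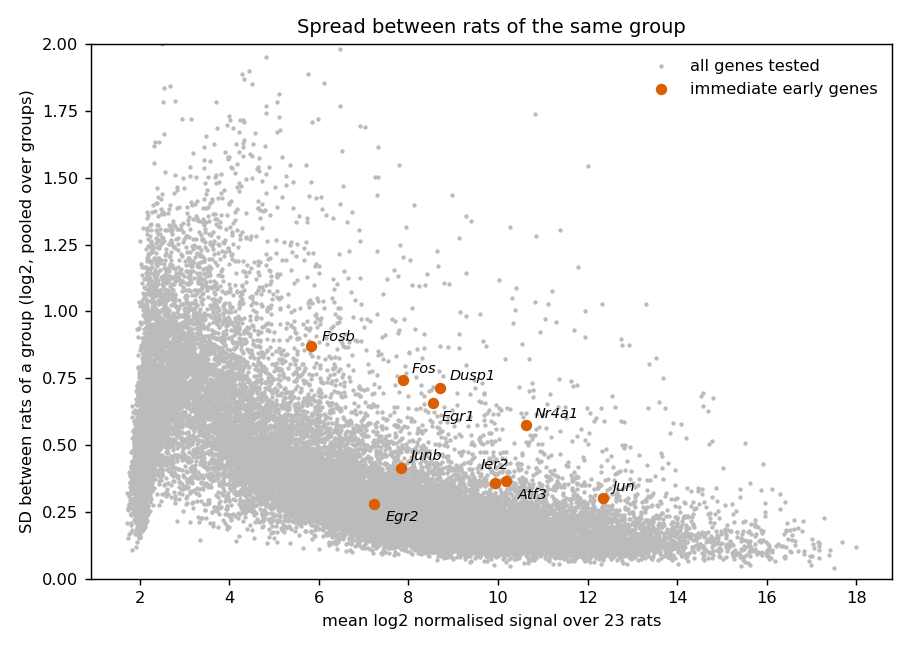
SD between rats of the same group, pooled over groups (vertical axis, log2), against the mean log2 normalised signal (horizontal axis) for all genes tested (grey) and the 10 immediate early genes (orange); 8 genes lie above the axis. The 10 genes except Egr2 lie towards the upper edge of the genes of like signal.

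Individual rats stood apart for many of the genes at a time. Control rat 6 of D28 was the highest of its group for 9 of the 10 genes, and exposed rat 3 of D0 for 7 of 10. In control rat 6 of D28 the signals were 9.50 for Fos, 9.61 for Egr1, 12.05 for Nr4a1 and 10.76 for Atf3, where the next control of that day had 7.88, 8.21, 11.02 and 9.72. In exposed rat 3 of D0 the signals were 9.26 for Fos, 9.56 for Egr1 and 8.41 for Fosb, while its Ier2 (9.67) and Dusp1 (8.04) were the lowest of the group. Control rat 1 of D0 was the highest for 6 of 10 genes, among them Egr1 (10.29), Ier2 (10.86) and Dusp1 (10.13), and exposed rat 3 of D28 for 5 of 10. Such rats were thus found among controls and among exposed rats. Control rat 6 of D28 and exposed rat 3 of D0 shared slide 5 with 2 other arrays, of which control rat 6 of D0 was the lowest of its group for 5 of 10 genes and exposed rat 2 of D28 for 2 of 10. The mean over 9 neutrophil markers, 7 of the 10 listed being well above background on every array, deviated from the group mean by -0.74 (log2) in control rat 6 of D28 and by 0.21 in exposed rat 3 of D0. The mean over 10 macrophage markers deviated by -0.35 and -0.08, and that over 15 heat shock genes by 0.06 and 0.21. Such a mean can hide 1 gene: Hspa1a ran from 8.94 to 13.61 in the exposed rats of D0, with a mean of 10.29 and an SD of 1.89. The part of these markers in the result was not tested.

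**Figure D4:**
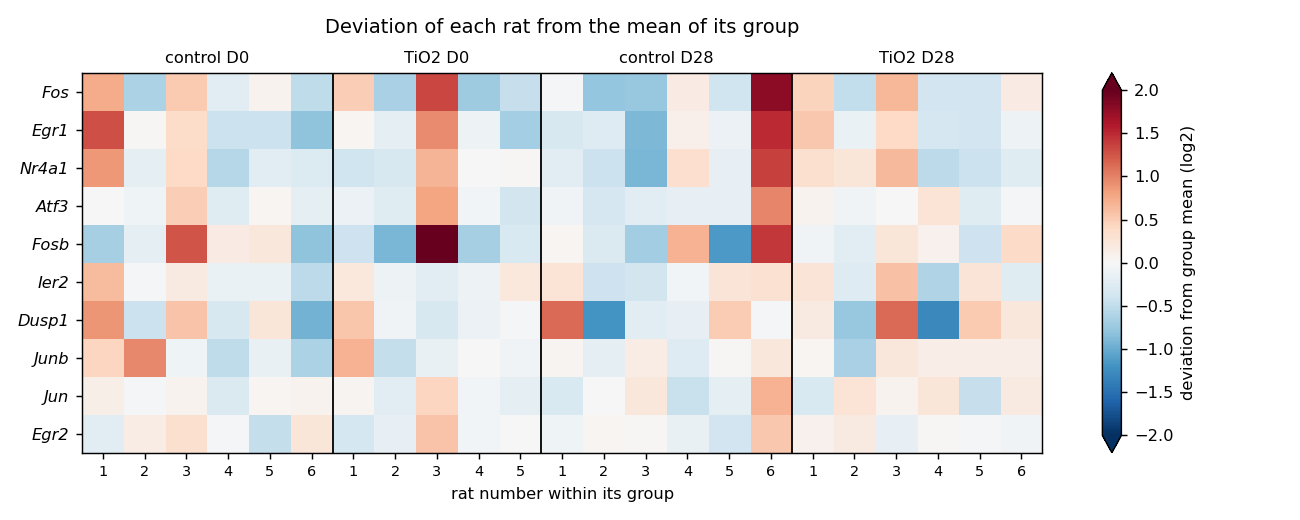
Deviation of each rat from the mean of its group (colour, log2) for the 10 genes in rows and the 23 rats in columns, grouped by treatment and time-point. Control rat 6 of D28 and exposed rat 3 of D0 deviate upwards in Fos, Egr1, Nr4a1, Atf3 and Fosb, while Ier2 and Dusp1 have their highest deviations in other rats.

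The correlation of each pair of genes over the 23 rats, after group means were removed, asked whether the genes moved together from rat to rat. Of the 45 pairs, 16 passed an adjusted p of 0.05 in a two-sided permutation test of Pearson's r within groups, all with r above 0, and 13 of them also passed by Spearman's rho. Fos, Fosb, Egr1, Atf3 and Nr4a1 formed 10 pairs with r from 0.54 to 0.89, of which 9 passed. Egr1 and Nr4a1 had an r of 0.887 (rho 0.79, adjusted p = 0.00045), and 0.854 without the 2 rats farthest from the Egr1 median. Fos and Egr1 had an r of 0.847 (rho 0.697, adjusted p = 0.0006), and 0.723 without the 2 rats farthest from the Fos median. Fosb and Atf3 had an r of 0.805 (rho 0.612, adjusted p = 0.0099). Without the 2 rats farthest from the Fosb median it was 0.589, which did not pass (adjusted p = 0.132 by permutation). The 2 rats left out for Fos and for Fosb were exposed rat 3 of D0 and control rat 6 of D28. In these checks the group means still included the rats left out, which can shift r. Ier2 and Dusp1 had an r of 0.863 (rho 0.795, adjusted p = 0.00045) and 0.822 without 2 rats. By Pearson's r Dusp1 passed with Ier2 alone, and had an r of 0.01 with Fosb and 0.03 with Atf3. By rho it passed with Fos too (0.549, adjusted p = 0.0302 by permutation). Ier2 also passed with Fos (0.49), Egr1 (0.54) and Nr4a1 (0.55), and had an r of 0.01 with Fosb and 0.10 with Atf3, which did not pass. Jun and Egr2 passed with each other (0.52) and with Atf3 (0.69 and 0.64), and Junb passed with none of the other genes. By rho, Jun with Egr2 (0.386, adjusted p = 0.154 by permutation) and Egr2 with Atf3 (0.224, adjusted p = 0.443 by permutation) did not pass. Removal of slide effects raised the r of Junb, as given below with the limit of that test. Egr2 and Dusp1 had the lowest r, at -0.39 (adjusted p = 0.114), and a rho of -0.544 (adjusted p = 0.0426 by permutation).

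Part of this rested on the pair of rats named above. Exposed rat 3 of D0 and control rat 6 of D28 were left out and the group means were taken again. Of the 45 pairs 8 then passed, and the 10 pairs among Fos, Fosb, Egr1, Atf3 and Nr4a1 had r from 0.13 to 0.80. Egr1 and Nr4a1 then had an r of 0.796 and Fos and Egr1 of 0.695, whereas Fosb and Egr1 had 0.133 and Atf3 and Egr1 0.374. Jun and Atf3 had 0.262, Jun and Egr2 0.095 and Egr2 and Atf3 0.046, and none of these passed any longer. Fos and Dusp1, at 0.406 over all rats, had 0.727, and Ier2 and Dusp1 had 0.885. With slide effects removed as well as group means, 30 pairs passed, and r was 0.916 for Egr1 and Nr4a1, 0.825 for Fos and Egr1 and 0.783 for Ier2 and Dusp1. The permutations for this setting shuffled rats within groups only and did not allow for the slide terms. The resulting p tend to be too small, so the count of 30 is not comparable with the count before slide removal. By these p Junb passed with 6 genes, namely Ier2 (0.856), Nr4a1 (0.704), Egr1 (0.688), Fos (0.645), Dusp1 (0.612) and Atf3 (0.521). Dusp1 also passed by them with Fos (0.689), Egr1 (0.472) and Nr4a1 (0.471). Under this setting Ier2 and Dusp1 cannot be said to stand apart from the other genes.

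**Figure D5:**
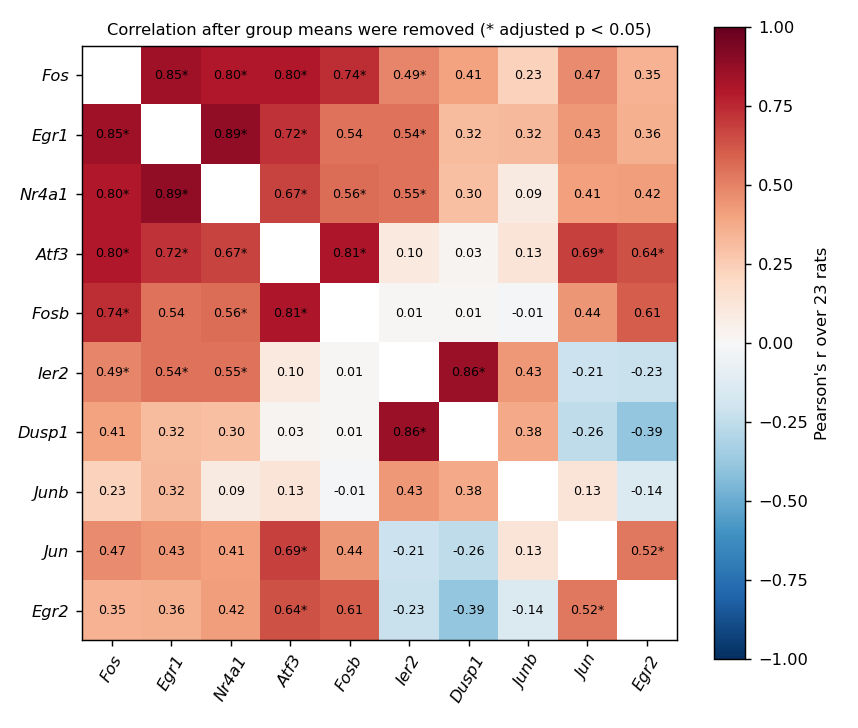
Pearson's r over 23 rats for each pair of the 10 genes after group means were removed (colour and number), with asterisks at an adjusted p below 0.05. Fos, Egr1, Nr4a1, Atf3 and Fosb form the block of high values at the upper left, and Ier2 with Dusp1 (0.86) is the highest value outside it.

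Set against all genes, the pattern of Fos, Egr1 and Nr4a1 was shared by few. Among the 23234 other genes, the one most correlated with Fos was Egr1, and Nr4a1, Atf3 and Fosb ranked 3, 4 and 6. Egr1 and Nr4a1 each ranked first for the other. Only 8 genes had an r above 0.7 with Fos, 10 with Egr1, 10 with Fosb, 16 with Nr4a1 and 20 with Atf3. Dusp1, in contrast, had an r above 0.7 with 754 genes and below -0.7 with 161, Jun with 353 and 169, Egr2 with 203 and 81, and Ier2 with 158 and 156. Ier2 ranked 8 among the genes most correlated with Dusp1, and Dusp1 ranked first for Ier2. These ranks and counts are descriptions over 23 arrays that share one normalization, and slide effects were not removed from them. They include exposed rat 3 of D0 and control rat 6 of D28, and no ranks were taken without these rats. Without them, Fos had an r of 0.695 with Egr1, 0.617 with Nr4a1, 0.444 with Fosb and 0.417 with Atf3. The mean Dusp1 signal on slides 1 and 3 was 8.82 and 9.81 in controls of D0 and 8.92 and 8.24 in exposed rats of D0. It was 7.83 and 9.36 in controls of D28 and 8.11 and 9.47 in exposed rats of D28. The part of the slides in these counts was not tested.

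Ccn1, a secreted matrix protein and itself an immediate early gene, was the gene outside the 10 most correlated with their mean (r = 0.88 over 23 rats). Ccn1 ran from 11.21 to 13.75 in controls of D28 and from 12.32 to 13.13 in those of D0, and had log2 FC of -0.49 on D0 and 0.15 on D28 (adjusted p = 0.719 and 0.942). After Ccn1 came LOC103692912 (0.78), Olr329 (0.76), Klhl33 (0.75), Upk2 (0.73), LOC102553338 (0.72), LOC103692153 (0.72), LOC103690934 (0.71), LOC100913030 (0.70) and Olr1244 (0.70). These are the highest r picked from all genes. The mean of the 10, in SD units, deviated most in control rat 6 of D28 (1.70) and exposed rat 3 of D0 (1.13). These rats were not left out here, and shared regulation was not tested.

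Relatives of these genes were read from lists. Of 17 AP-1 and other bZIP relatives, 2 were over-expressed on D0 and none on D28. Batf, which pairs with Jun proteins in lymphoid and myeloid cells, ran from 9.28 to 9.79 in exposed rats of D0 and from 8.87 to 9.12 in controls, with no overlap and a log2 FC of 0.60 ± 0.10 (SE, limma adjusted p = 0.00166). On D28 its log2 FC was 0.36 (adjusted p = 0.0766). Fosl1, a Fos relative, stood well above background on 3 of the 5 exposed arrays of D0 and on 0 of the 6 control arrays, and was called on D0 (adjusted p = 0.00107). Its FC is a bound, at least 1.06-fold higher, taking the lowest signal well above background on each array for the controls, and Fosl1 was not well above background in any rat of D28. Of 6 relatives of the EGR and NR4A factors, Nr4a3 rose on D0 with a log2 FC of 0.98 ± 0.25 (SE, limma adjusted p = 0.0374), from 5.36 ± 0.25 (SD, n = 6) to 6.34 ± 0.51 (SD, n = 5), and had 0.78 on D28 (adjusted p = 0.13). Egr3 had log2 FC of 0.03 and 0.09, and Nr4a2 of 0.06 and -0.07. The group means of Egr3 ran from 3.27 to 3.39, and the lowest signal well above background from 3.15 to 4.43 between arrays. Egr3 thus lay near the floor, and its FC does not show that it was unchanged. Of 13 other phosphatases and inhibitors of the MAP kinase pathway, 0 were called on either day, with medians of -0.13 on D0 and -0.07 on D28.

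Of 42 other immediate early genes, 2 fell on D0 and 1 rose on D28. Csrnp1, a nuclear factor induced by Axin, fell on D0 by 0.67 on the log2 scale (standard error 0.15, adjusted p = 0.0132), from 9.68 ± 0.24 (SD, n = 6) to 9.01 ± 0.26 (SD, n = 5), and had 0.22 on D28. Klf9, a Krüppel-like factor that glucocorticoids and the clock control, fell on D0 by 0.86 ± 0.16 (SE, limma adjusted p = 0.00315), and had -0.17 on D28. Gadd45g, a stress sensor, rose on D28 with a log2 FC of 0.66 ± 0.14 (SE, limma adjusted p = 0.0209), from 11.68 ± 0.28 to 12.34 ± 0.21 (SD, n = 6 each), and had 0.53 on D0 (adjusted p = 0.0534). The list had medians of -0.08 and 0.03. None of 29 upstream kinases and factors and none of 15 heat shock genes was called on either day.

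Hormone-responsive and clock genes were read in the same way. Of 14 glucocorticoid-induced genes, 3 rose (Angptl4, Lcn2, Mt2A) and 4 fell (Errfi1, Klf9, Per1, Zbtb16) on D0. Lcn2, an iron-binding acute-phase protein, had a log2 FC of 1.65, and Zbtb16, a transcription factor, of -1.99. On D28, 2 fell (Fkbp5, with -1.02, and Zbtb16, with -2.23), and Angptl4, Cdkn1a and Pdk4 were over-expressed in controls of D28 against D0. Of 15 clock genes, Bhlhe41 and Cry1 rose and Nr1d1 and Per1 fell on D0, while Dbp, Nr1d1, Nr1d2 and Per2 rose and Arntl, Cry1 and Npas2 fell on D28. Between the controls of the 2 days 10 clock genes were called, among them Dbp, Npas2, Nr1d1, Arntl, Per2, Hlf and Nr1d2. Ciart was called too, but stood well above background on 1 of 6 control arrays of D0 and on 0 of 6 of D28, and no FC or rank is given for it. In exposed rats Cry1 and Per2 fell and Npas2 and Nr1d1 rose from D0 to D28. The time of day at which rats were killed was not analysed here.

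Markers of the cell types of the lobe were present: all 8 type II and all 6 type I pneumocyte markers, all 7 endothelial markers and 9 of 10 macrophage markers were well above background on every array. Of the macrophage markers, Chi3l1, Siglec1 and Spp1 were over-expressed on D0 and Chi3l1 and Spp1 on D28. The summed linear signal of the 10 macrophage markers ran from 33630 to 43500 in controls and from 52940 to 66510 in exposed rats on D0. On D28 it ran from 28150 to 43530 and from 44150 to 58160. Such a sum is weighted towards the brightest markers, Gpnmb and Cd68 (means of 14.54 and 13.11 in D0 controls), and neither was called. The log2 FC was above 0 for 9 of the 10 markers on D0 and for 8 on D28, and Adgre1 was lower on D0 (7.74 against 7.99). Of 7 cardiac muscle markers Myl7 was under-expressed on both days, with log2 FC of -0.60 and -0.63. Col1a1 and Col3a1, the collagens of fibroblasts, rose from D0 to D28 in control and in exposed rats, and the airway mucin Muc5b was lower in exposed rats on D28 than on D0, with 3 of 5 exposed arrays of D0 and 0 of 6 of D28 well above background. The part of these markers in the values of the immediate early genes was not tested.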

How the data were processed

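Total RNA of the accessory lobe of 23 rats was measured on 1-colour arrays. Per the file headers, the authors deposited scanner intensities from Agilent Feature Extraction 11.0.1.1 or 12.0.1.1, with a processed signal per spot corrected for background and not normalized between arrays. A deposited table holds quantile normalized intensities and served as an alternative. Gene names were those of the array read with the later version. Outlier spots were set missing, and probes above the 95th percentile of 308 negative controls on at least 5 arrays were kept (40899 of 45598). Log2 signals were quantile normalized, spots and then probes of a gene averaged, and 51 genes with missing values dropped. One limma model (3.58.1, R 4.3.3) with 4 group means and no batch term was fitted, with 19 residual degrees of freedom. It was tested on simulated data. Groups followed the titles and descriptions, since the source label of the exposed D28 samples reads day 0. Labels do not tie equal rat numbers to each other. Probes are placed on rn4, as the scanner files give it, and promoters on GRCr8. Correlations used 100000 permutations (numpy 2.4.6). The genes named were the 10 members, list genes called in any contrast (the 8 with the greatest FC where more), and the 10 genes most correlated with the members' mean. The members and lists were chosen with earlier results of these data known. Alternatives covered scaling, background correction, the deposited table, filters, probes, outliers, arrays used, variance moderation, weights, slide, replicate number, FC limit and each array left out.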

Additional observations from a re-analysis of the deposited data

Results flagged for a closer look

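In 6 of the 40 combinations of gene and group, 1 rat stood apart by Dixon's test, where chance gives about 1 in 20 groups. The 40 combinations are not independent, since correlated genes were measured in the same rats, so the 2 shares cannot be compared as separate draws. Fos had a log2 signal of 9.503 in control rat 6 of D28, with 7.88 in the next rat, and Atf3 in the same rat had 10.76, with 9.719 in the next. Fosb had 8.415 in exposed rat 3 of D0, with 5.813 in the next rat, and Atf3 in the same rat had 11.35, with 10.5 in the next. Jun had 12.08 in control rat 4 of D0, below the next rat at 12.34, and Junb had 7.203 in exposed rat 2 of D28, below the next at 7.889. Among the genes of the lists, the effect of TiO2 differed between D28 and D0 in the limma contrast of both effects for 4 clock genes: by a log2 of -1.674 for Cry1, 3.906 for Dbp, 4.492 for Nr1d1 and 1.805 for Nr1d2.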

How the results depend on the processing

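Of 1420 values of the 10 genes under alternatives, 1354 kept their direction and were not called, and 35 of 50 results kept their direction throughout. The 2 values called were Atf3 in control D28 against D0 without control rat 6 of D28 (-0.82, limma adjusted p = 0.0183) and also without exposed rat 3 of D0 (adjusted p = 0.00124). Counts of all genes called moved by over 1.5 times as follows. On D0 (408) they were 220 with normexp and 651 with no FC limit. On D28 (174) they were 94 with normexp, 41 with only the arrays of both groups and 303 with no FC limit. For the difference between days (7) they were 14 with normexp, 13 with the well-above-background filter and 12 with an intensity trend and robust estimation. For exposed D28 against D0 (81) they were 135 with each probe on its own, 28 with only the arrays of both groups and 128 with the slide as a block. Of the 45 pairs, 16 passed, and 30 with slide removed, by p that tend to be too small. There were 7 without the 2 farthest rats, with group means still taken over all rats. There were 8 without the 2 rats that stood apart, which were chosen after seeing the data. Without 1 array, counts ran from 314 to 358 on D0, from 111 (without exposed rat 1 of D28) to 173 on D28, from 6 to 11 (without exposed rat 4 of D28) for the difference, from 87 (without control rat 2 of D28) to 195 for control D28 against D0 and from 56 to 89 for exposed D28 against D0.

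Directions turned for 15 of the 50 results, and the cause was not tested. With array quality weights the log2 FC was -0.1222 for Fosb on D0, 0.2353 for Fos and 0.1276 for Nr4a1 on D28, -0.01652 for Jun and 0.02363 for Egr2 in the difference, -0.2027 for Fosb in controls and 0.0009858 for Ier2 in exposed rats between days. Without both rats it was -0.3889 for Fosb and -0.06175 for Atf3 on D0, 0.2947 for Fos and 0.1423 for Nr4a1 on D28, 0.2007 for Egr2 in the difference, -0.1326 for Fosb in controls, and 0.06973 for Fos and 0.0597 for Egr1 in exposed rats between days. With the brightest probe, which is also that probe alone, it was -0.05628 for Ier2 on D28, -0.1232 for Jun in controls and 0.03795 for Ier2 in exposed rats, and the other Jun probe gave -0.1174 in the difference. With the slide as a block it was -0.01642 for Jun in the difference and -0.0693 for Junb in exposed rats. Without 1 array, values ran on D0 from -0.3889 to 0.4383 for Fosb, -0.3555 to 0.01372 for Junb and -0.06175 to 0.2353 for Atf3. On D28 they ran from -0.2195 to 0.2947 for Fos, -0.07479 to 0.1606 for Ier2, -0.3133 to 0.1423 for Nr4a1 and -0.1359 to 0.3624 for Dusp1. In the difference they ran from -0.07919 to 0.148 for Jun and -0.1384 to 0.09168 for Egr2, and for Fosb in controls from -0.1326 to 0.4024. In exposed rats between days they ran from -0.4456 to 0.06973 for Fos, -0.05804 to 0.237 for Junb, -0.3447 to 0.0597 for Egr1 and -0.2061 to 0.02926 for Ier2.

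Equal replicate numbers did not pair the rats: over 33 pairs of arrays with the same number, deviations correlated from -0.299 to 0.451 (median -0.0232), 12 pairs were over 0.1, and 7 of 23 arrays correlated best with their own number. With the replicate block, 354 genes were called on D0, 137 on D28, 5 for the difference, 123 and 67 between days in controls and exposed rats, and Jun in the difference was -0.05503.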
